A study of Trichoderma reesei with 9 samples.

Results

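The genes described here are those whose level in the first of 3 glucose cultures of *Trichoderma reesei* stood apart from both other glucose cultures. Levels were counts scaled to a common total (CPM), the count of a gene divided by the total of its library and multiplied by 1000000. A gene was chosen by its glucose values alone, when its CPM in glucose replicate 1 was at least 4-fold above, or at least 4-fold below, that in both replicates 2 and 3, with the higher side at 10 CPM or more in every library. The choice gave 168 of the 9849 genes in the table, 49 higher and 119 lower in glucose replicate 1. Because these values selected the genes, the differences among the glucose cultures are given as a description with no test. The levels on necromass were not used in the choice.

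All cultures were of *T. reesei* strain RUT-C30, a cellulase hyper-producing mutant in which glucose catabolite repression is impaired, and all were sampled after 7 days. The biomass of every culture was first grown in malt extract broth, washed and acclimated in a carbon-free mineral medium (Highley's medium). It was then given 1% (w/v) glucose, 0.45% (w/v) low melanin necromass or 0.45% (w/v) high melanin necromass, with 3 biological replicates of each. Necromass is dead fungal mycelium, here of *Hyaloscypha bicolor*, and each type was harvested in bulk as 1 batch, so replicates on necromass share their substrate batch. Poly(A) RNA was sequenced in bulk, and fewer active cells and less RNA of a gene per cell cannot be told apart in such counts.

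Filamentous fungi alter the genes for nutrient uptake, extracellular hydrolases and central carbon metabolism with the nutrient at hand. *T. reesei* is best known for its cellulases, whose genes are repressed by glucose through the regulator CRE1, a repressor that is truncated in RUT-C30. Pyruvate decarboxylase takes pyruvate towards acetaldehyde and ethanol, and phosphoketolase splits sugar phosphates to acetyl phosphate. Hydrophobins are small secreted proteins that coat hyphae and spores and make their surfaces water-repellent.

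Library totals ranged from 18074631 to 24635281 counts, and 9584 to 9658 genes had at least 1 count. Among the 6757 genes with a mean of 10 CPM or more on glucose, 676 differed at least 2-fold between glucose replicates 1 and 2 and 708 between replicates 1 and 3. Replicates 2 and 3 differed that much at 18 genes (0.266%). Pairs of replicates on low melanin necromass differed at least 2-fold at 5 to 44 of 7133 genes, and pairs on high melanin necromass at 22 to 43 of 7060. The same choice made with any of the other 8 libraries as the odd one of its substrate gave 0 genes. RNA from all cultures was extracted on the same day, and the labels give no other batch. On the CPM scale the median gene was 0.21 higher (log2) in glucose replicate 1 than in replicates 2 and 3, and 0.12 lower (log2) on high than on low melanin necromass. With TMM scaling, which removes such shifts, the choice gave 180 genes, 34 higher and 146 lower.

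**Figure D1:**
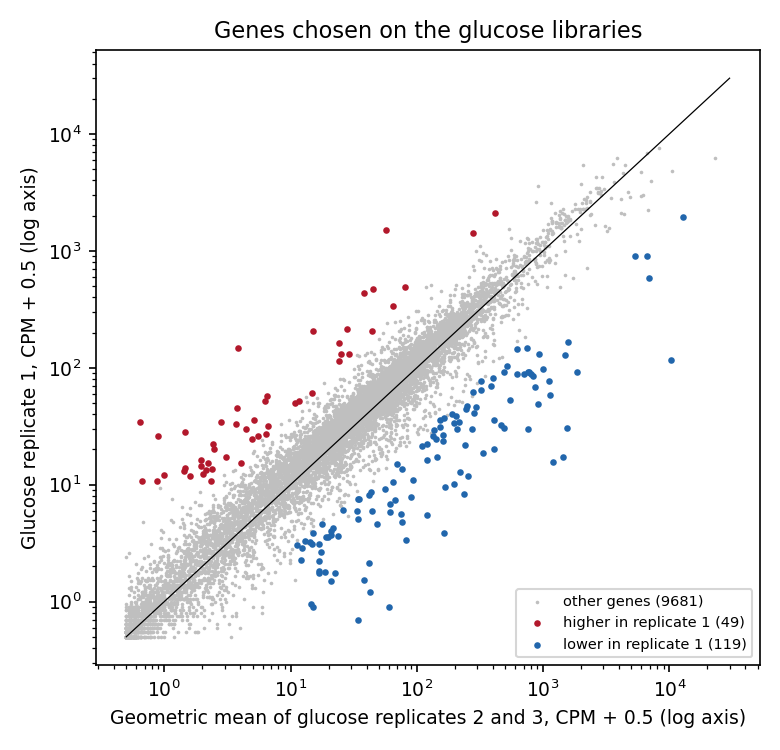
Each point is a gene, with the geometric mean of CPM + 0.5 in glucose replicates 2 and 3 on the x axis and CPM + 0.5 in glucose replicate 1 on the y axis, both on log axes. The 49 chosen genes above the line of equal levels are red, the 119 below it are blue, and the remaining genes are grey.

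The 119 genes lower in glucose replicate 1 took up 0.793% of all counts in that library, against 7.30% in replicate 2 and 8.09% in replicate 3. In the necromass libraries their share was 9.32%, 8.46% and 8.77% on low melanin and 6.51%, 7.16% and 6.64% on high melanin necromass. Protein IDs 109243 and 124811, the 2 genes of the set with the highest mean level on necromass, carried much of these sums. Without them the share was 0.771% in glucose replicate 1, 7.01% and 7.83% in replicates 2 and 3, 5.01%, 4.29% and 4.75% on low melanin and 3.11%, 3.78% and 2.99% on high melanin necromass. The summed level of the remaining genes thus lay between those of glucose replicate 1 and replicates 2 and 3 in all 6 necromass libraries, and was lower in each high melanin library than in each low melanin one. The 49 genes higher in glucose replicate 1 took up 0.898% of its counts, against 0.138% and 0.120% in replicates 2 and 3. Their share was 0.151% to 0.209% on low and 0.226% to 0.252% on high melanin necromass, nearer to replicates 2 and 3. Most of this necromass share came from protein IDs 125146 and 128840, which were above all glucose libraries there. Their mean levels were 860 and 301 CPM on low and 1242 and 552 CPM on high melanin necromass. The summed share thus says little of the remaining higher genes. The 95% Wilson interval of each share was at most 0.0134 percentage points to either side and covers counting error only.

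The median level of the genes lower in glucose replicate 1 was 16.6 CPM there, 147 and 152 CPM in replicates 2 and 3, 61.0 to 75 CPM on low melanin and 50.5 to 56.3 CPM on high melanin necromass. For the genes higher in glucose replicate 1 the median was 32.8 CPM there, 4.49 and 3.60 CPM in the other glucose libraries, 3.72 to 3.82 CPM on low melanin and 2.84 to 3.14 CPM on high melanin necromass. The ratio of glucose replicate 1 to the nearer of replicates 2 and 3, computed on CPM + 0.5, had a median of 6.39 among the higher genes (3.76 to 49.5) and, inverted, 6.52 among the lower genes (3.63 to 81.2). It reached 10-fold at 10 of the higher and 39 of the lower genes.

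**Figure D2:**
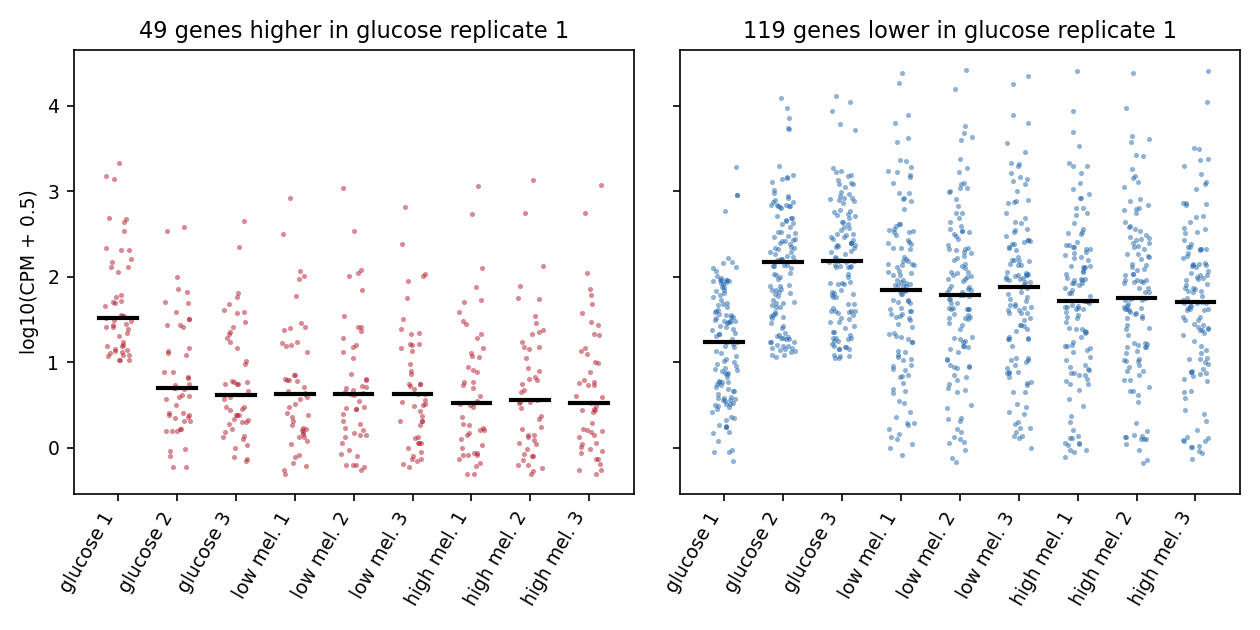
Log10(CPM + 0.5) of the 49 genes higher (left) and the 119 genes lower (right) in glucose replicate 1, by library, each point a gene and each bar the median. For the higher genes the necromass medians of 2.84 to 3.82 CPM lie by those of glucose replicates 2 and 3, and for the lower genes the necromass medians of 50.5 to 75 CPM lie between the 16.6 CPM of replicate 1 and the 147 and 152 CPM of replicates 2 and 3.

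The genes nearest to the 4-fold limit show how gradual it was. Just inside it, protein ID 71481 had 51.6 CPM in glucose replicate 1 against 12.9 and 9.83 CPM in replicates 2 and 3, and protein ID 73838 had 4.13 CPM against 16.6 and 18.2 CPM. Just outside it, protein ID 128658 had 23.7 CPM against 6.02 and 4.87 CPM, and protein ID 126155 had 10.2 CPM against 40.4 and 48.5 CPM.

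Annotation tags (protein domains, enzyme classes, CAZyme families) were at hand only for genes that the study had called different from glucose, and 51 of the 168 genes carried tags. Of the rest, 24 were listed without any tag and 93 were not in that annotation. The study's calls required a log2 change of at least 2. Large differences between necromass and glucose among tagged genes therefore follow in part from this selection. Over all 1481 tagged genes, 15 were higher and 36 were lower in glucose replicate 1. The lists below hold few genes beside these, and their counts were not tested against that share. Among 140 genes tagged as carbohydrate-active enzymes, 1 was higher and 4 were lower in glucose replicate 1, and among 210 transporters 2 were higher and 4 lower. Genes with a MEROPS peptidase family tag gave 1 higher gene of 68, hydrophobins and CFEM proteins 1 higher of 7, and heterokaryon incompatibility and ankyrin proteins 1 higher of 43. Protein IDs 62371 and 124811, both lower in glucose replicate 1, carry peptidase tags of other kinds and were outside that peptidase list. On the lower side were 2 of 15 oxidative stress genes, 1 of 39 short-chain dehydrogenases, 1 of 23 cytochromes P450, 1 of 20 FAD-linked oxidoreductases and 1 of 18 nitrogen uptake genes. None of 67 translation genes, 49 genes with a zinc cluster, C2H2, bZIP or bHLH transcription factor tag of Pfam, 16 protein kinases, 9 polyketide and peptide synthases or 1 heat shock gene was among the 168.

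No list of central carbon metabolism genes was counted, and protein IDs 141194, 98500 and 136611 were chosen after their values were seen. Of such genes, the pyruvate decarboxylase gene (protein ID 141194) was at 905 CPM in glucose replicate 1 and at 5570 and 5164 CPM in replicates 2 and 3. It was at 769, 438 and 723 CPM on low melanin necromass and at 221, 289 and 221 CPM on high melanin necromass. Every necromass library was below every glucose library, and the high melanin libraries were below all the low melanin ones. The difference between the necromass types, a log2 change (the base-2 logarithm of the ratio) of -1.29 (SE 0.19), passed the test in the 6 necromass libraries (edgeR quasi-likelihood test, Benjamini-Hochberg adjusted p = 0.00154). A phosphoketolase gene (protein ID 98500) was at 899 CPM in glucose replicate 1 and at 7205 and 6192 CPM in the other glucose libraries. Its levels were 1466, 1099 and 1339 CPM on low melanin and 560, 780 and 504 CPM on high melanin necromass. Low melanin libraries were above glucose replicate 1 and high melanin libraries below it, and the log2 change between them was -0.97 (SE 0.16, adjusted p = 0.00246). Acetolactate synthase, the first enzyme of branched-chain amino acid synthesis, shares its fold and cofactor with pyruvate decarboxylase, and a gene tagged for it (protein ID 93322) was at 1.74, 19.3 and 14.0 CPM on glucose. It was at 2.88, 2.64 and 4.02 CPM on low melanin and 0.893, 0.915 and 0.699 CPM on high melanin necromass, a log2 change of -1.80 (SE 0.25, adjusted p = 0.00114). These levels rested on 52, 59 and 81 counts on low and 22, 21 and 15 counts on high melanin necromass. A sorbitol dehydrogenase-type gene (protein ID 136611) was at 102 CPM in glucose replicate 1, 486 and 546 CPM in replicates 2 and 3, and 72.9 to 105 CPM in the necromass libraries, which lay around or below glucose replicate 1.

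Genes for uptake went in both directions. A sugar transporter gene of the major facilitator superfamily (protein ID 109243) was at 165, 1456 and 1708 CPM on glucose. It was at 24235, 26008 and 22178 CPM on low melanin and at 25292, 24370 and 25571 CPM on high melanin necromass, far above all glucose libraries, with the necromass types overlapping (log2 change 0.17, SE 0.18, adjusted p = 0.499). Another sugar transporter gene (protein ID 7623) showed the opposite order, with 7.41, 80.9 and 99.7 CPM on glucose and 4.03 to 5.17 CPM in the 6 necromass libraries, all below glucose replicate 1. The peptide transporter gene of the proton-dependent family (protein ID 26904) was at 11.4, 213 and 306 CPM on glucose. On low melanin necromass it reached 1739, 1233 and 2097 CPM, and on high melanin necromass 633, 617 and 698 CPM. All necromass libraries were above the glucose ones, and the level fell from low to high melanin necromass by 1.26 on the log2 scale (SE 0.18, adjusted p = 0.00128). An amino acid permease gene (protein ID 133603) was at 7.81 CPM in glucose replicate 1, 225 and 251 CPM in replicates 2 and 3, and 25.9 to 42.4 CPM on necromass, between the glucose levels. Its necromass types did not differ past the threshold (log2 change 0.40, SE 0.19, adjusted p = 0.126), though without low melanin replicate 2 they did (log2 change 0.69, adjusted p = 0.0030).

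Both transporter genes that were higher in glucose replicate 1 were far below its level on necromass. A gene of the amino acid/auxin permease family (protein ID 104258) was at 1415, 343 and 221 CPM on glucose, at 1.83, 2.33 and 1.84 CPM on low melanin and at 0.244, 0.0871 and 1.45 CPM on high melanin necromass. All glucose libraries were far above all necromass libraries, and the difference between necromass types missed the threshold (adjusted p = 0.0712) but passed it without high melanin replicate 3 (log2 change -3.45, adjusted p = 0.00208). The high melanin levels rested on only 6, 2 and 31 counts in replicates 1, 2 and 3. A pleiotropic drug resistance-type ABC transporter gene (protein ID 116127), of a family that exports toxic compounds, was at 162, 26.8 and 20.8 CPM on glucose, 25.1, 18.9 and 32 CPM on low melanin and 12.3, 13.7 and 14.4 CPM on high melanin necromass. Low melanin libraries overlapped glucose replicates 2 and 3, high melanin libraries were below them, and the log2 change between the necromass types was -0.80 (SE 0.18, adjusted p = 0.00955).

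Of the enzymes that cut or build polysaccharides, the GH20 gene (protein ID 7256), of the beta-N-acetylhexosaminidase family that trims chitin oligomers, was at 1.04 CPM in glucose replicate 1 and at 33.1 and 43.0 CPM in replicates 2 and 3. It was at 4.15, 5.64 and 7.20 CPM on low melanin and at 8.32, 10.5 and 9.14 CPM on high melanin necromass, between the glucose levels, and rose from low to high melanin necromass by 0.82 (log2, SE 0.19, adjusted p = 0.0129). The GH54 arabinofuranosidase gene (protein ID 72252), for a family that removes arabinose side chains from plant polysaccharides, was at 4.97, 106 and 136 CPM on glucose and at 6.21 to 14.7 CPM on necromass, where the types overlapped (adjusted p = 0.25, but 0.00674 with a log2 change of 0.90 without low melanin replicate 2). The GT4 glycosyltransferase gene (protein ID 122799) was at 91.9, 1989 and 1741 CPM on glucose, with 314 to 413 CPM on low melanin and 206 to 284 CPM on high melanin necromass, and showed a change of -0.47 on the log2 scale (SE 0.12, adjusted p = 0.0203) that missed the threshold without low melanin replicate 1 or high melanin replicate 1 or 3 (adjusted p of 0.0636 to 0.0860). The GH1 beta-glucosidase gene (protein ID 127115), of a family that releases glucose from cellobiose, stood apart from these in its necromass levels. It was at 40.1, 217 and 371 CPM on glucose, 4250, 4884 and 3695 CPM on low melanin and 4948, 4396 and 3160 CPM on high melanin necromass, above every glucose library and overlapping between the types (log2 change 0.07, SE 0.18, adjusted p = 0.796). The 1 carbohydrate-active enzyme gene higher in glucose replicate 1 (protein ID 74697), of the GH30_3 beta-glucanase family, was at 12.8, 1.94 and 1.41 CPM on glucose and at 0.218 to 0.771 CPM, or 5 to 19 counts, on necromass, too low for the test. A gene that the study assigns to AA11, the chitin-cleaving lytic polysaccharide monooxygenases (protein ID 71162), was at 8.65, 50.7 and 60.2 CPM on glucose, 36.7, 41.6 and 57.2 CPM on low melanin and 15.5, 16.2 and 10.6 CPM on high melanin necromass. Low melanin libraries were nearer to glucose replicates 2 and 3 and high melanin libraries to replicate 1, with a log2 change of -1.57 between them (SE 0.19, adjusted p = 0.000778).

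**Figure D3:**
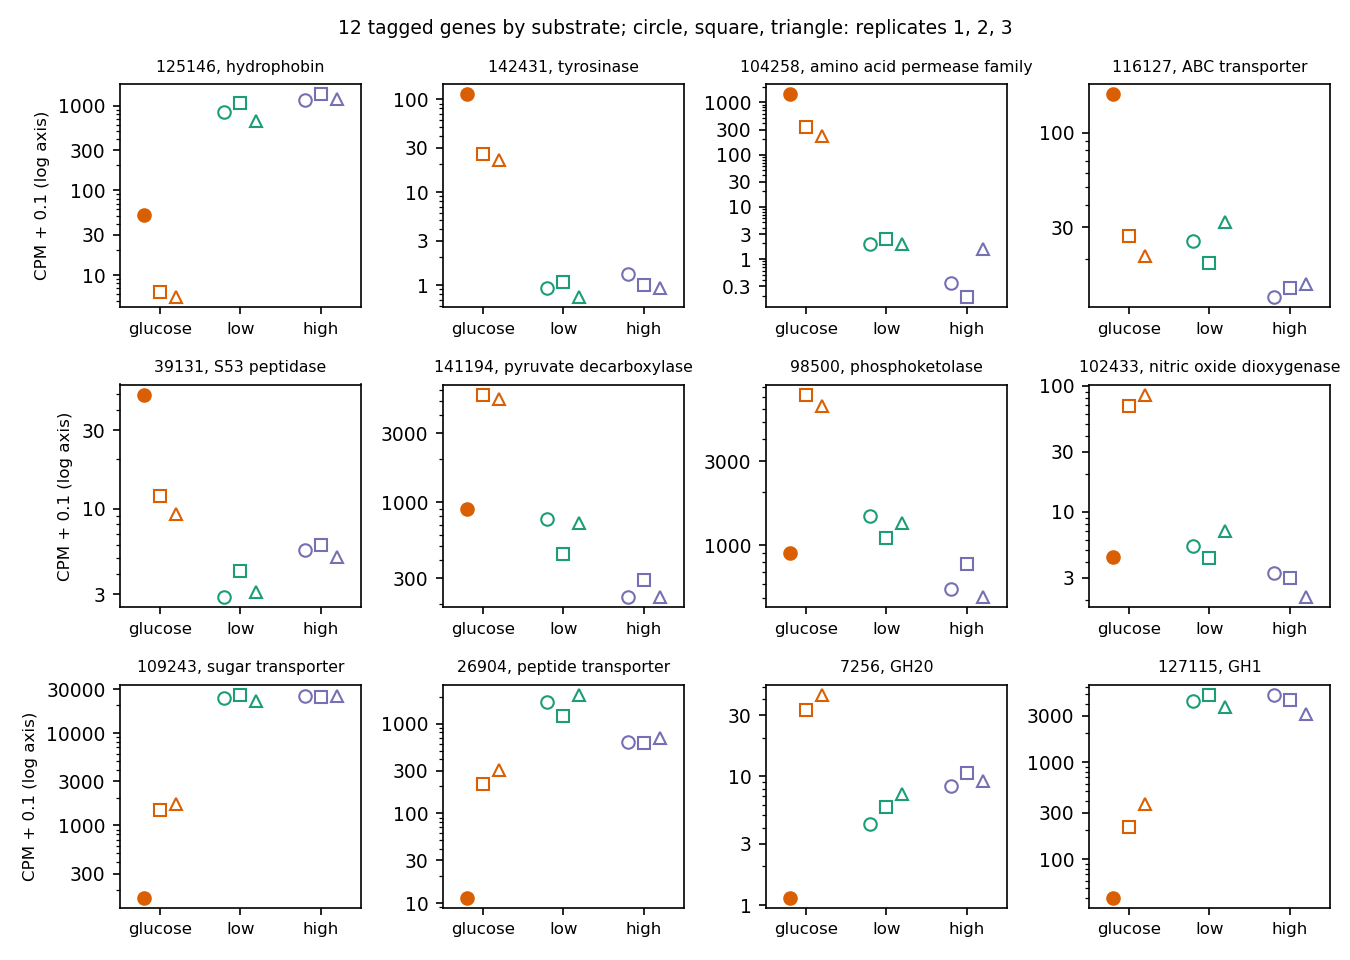
CPM + 0.1 on a log axis for 12 tagged genes, each point a library, on glucose, low and high melanin necromass, with glucose replicate 1 as the filled circle. Tags existed only for genes that the study had called different from glucose. The necromass points lie above all glucose points for the hydrophobin, the sugar transporter, the peptide transporter and the GH1 gene, and below all of them for the tyrosinase, the amino acid permease family and the S53 peptidase genes and for pyruvate decarboxylase.

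Among genes for surface, defence and redox proteins, the hydrophobin gene (protein ID 125146) was at 51.0 CPM in glucose replicate 1 and at 6.17 and 5.40 CPM in replicates 2 and 3. On low melanin necromass it was at 837, 1089 and 653 CPM and on high melanin necromass at 1162, 1364 and 1200 CPM. Each necromass library exceeded each glucose library by over 10-fold, and the high melanin libraries were above the low melanin ones by 0.64 on the log2 scale (SE 0.18, adjusted p = 0.0247). The gene with the tyrosinase domain (protein ID 142431), a copper enzyme fold that oxidises phenols and in many organisms starts melanin synthesis, had 113, 25.6 and 21.9 CPM on glucose and 0.646 to 1.22 CPM on necromass of either type. The flavohemoglobin gene (protein ID 102433), whose product detoxifies nitric oxide, was at 4.33, 68.8 and 85.0 CPM on glucose. It was at 5.31, 4.21 and 6.96 CPM on low melanin and 3.21, 2.92 and 2.00 CPM on high melanin necromass, around and below glucose replicate 1, a log2 change of -0.90 (SE 0.23, adjusted p = 0.0178). Glutathione S-transferases join glutathione to reactive compounds, and a gene for one (protein ID 140662) was at 92.1, 694 and 846 CPM on glucose, with 104 to 158 CPM on low melanin and 64.8 to 83.7 CPM on high melanin necromass (log2 change -0.83, SE 0.15, adjusted p = 0.00364). The hydrophobin call was lost without low melanin replicate 1 or 3 or high melanin replicate 2 or 3 (adjusted p of 0.0534 to 0.0941), and that of the flavohemoglobin gene without low or high melanin replicate 3 (adjusted p up to 0.0590). Another glutathione S-transferase gene (protein ID 77007) was at 81.0, 427 and 382 CPM on glucose and at 0.174 to 1.99 CPM on necromass, and so was lower on necromass than even in glucose replicate 1.

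The phenol hydroxylase gene (protein ID 121479), an FAD-linked enzyme fold that adds hydroxyl groups to phenols, was at 131, 694 and 1251 CPM on glucose, with 301 to 365 CPM on low melanin and 103 to 228 CPM on high melanin necromass (log2 change -0.93, SE 0.22, adjusted p = 0.0123). Old yellow enzyme is a flavin reductase, and its gene (protein ID 69133) was at 1.64, 44.3 and 38.9 CPM on glucose and at 0.373 to 1.44 CPM on necromass, below glucose replicate 1 in all 6 libraries. A quinone reductase-type gene (protein ID 104401) had 12.4, 216 and 223 CPM on glucose, with 12.6 to 15.2 CPM on low melanin and 8.77 to 9.76 CPM on high melanin necromass, beside glucose replicate 1 (log2 change -0.42, SE 0.12, adjusted p = 0.0246, but 0.0668 to 0.0840 without low melanin replicate 3 or high melanin replicate 1 or 2). The cytochrome P450 gene (protein ID 88726), for a haem mono-oxygenase, and the short-chain dehydrogenase gene (protein ID 75795) were lower in glucose replicate 1 yet highest on necromass. The P450 gene was at 26.2, 195 and 130 CPM on glucose, with 670 to 808 CPM on low melanin and 514 to 557 CPM on high melanin necromass (log2 change -0.39, SE 0.09, adjusted p = 0.0126, but 0.0635 without low melanin replicate 1). The dehydrogenase gene was at 2.39, 13 and 10.7 CPM on glucose and at 297 to 367 CPM in the 6 necromass libraries (adjusted p = 0.141 between the types). Of peptidase genes, the S53 tripeptidyl peptidase gene (protein ID 39131), for an enzyme that takes tripeptides from protein ends, was at 49.6, 11.8 and 9.15 CPM on glucose, with 2.77 to 4.03 CPM on low melanin and 4.94 to 5.88 CPM on high melanin necromass, a rise of 0.83 (log2, SE 0.18, adjusted p = 0.00914). A gene with a zinc metallopeptidase site (protein ID 62371) was at 0.696, 36.5 and 47.9 CPM on glucose and at 0.498 to 0.894 CPM, or 9 to 20 counts, on necromass, the level of glucose replicate 1.

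The zinc finger genes described next were outside the list of transcription factor tags above and were not counted against a total. A gene with a GATA zinc finger (protein ID 110465), the DNA-binding fold of fungal nitrogen regulators, was at 38.1, 184 and 229 CPM on glucose and at 30.7 to 43.2 CPM on necromass, the level of glucose replicate 1. A C2H2 zinc finger gene (protein ID 110048) was at 493, 99.5 and 64.1 CPM on glucose and at 21.3 to 29.8 CPM on necromass, with a higher mean on high melanin necromass (log2 change 0.34, SE 0.11, adjusted p = 0.0477), a call that was lost without any 1 of the 6 libraries (adjusted p of 0.0525 to 0.139). For another gene of that zinc finger class (protein ID 104534) the levels were 56.9, 7.14 and 5.06 CPM on glucose, with 3.72 to 5.75 CPM on low melanin and 2.24 to 2.96 CPM on high melanin necromass (log2 change -0.76, SE 0.19, adjusted p = 0.0162), and its call was lost without high melanin replicate 3 or low melanin replicate 1 or 3 (adjusted p up to 0.0651). The gene with a heterokaryon incompatibility domain (protein ID 115984), a domain of fungal non-self recognition, was at 29.6, 4.54 and 3.46 CPM on glucose and 1.54 to 2.96 CPM on necromass. For these 3 genes, from the C2H2 gene on, the necromass libraries sat with or below glucose replicates 2 and 3.

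The largest ratios among the glucose libraries included those of genes without a tagged function. Protein ID 120413, which carries no tags, was at 116 CPM in glucose replicate 1 and at 9496 and 11012 CPM in replicates 2 and 3, the largest ratio of all 168 on CPM + 0.5. It was at 947, 490 and 748 CPM on low melanin and at 181, 343 and 137 CPM on high melanin necromass, between the glucose levels, and the log2 change of -1.62 (SE 0.32) passed the test (adjusted p = 0.00567). The gene next to it in that ratio (protein ID 125133) carries the tag of the globin-like fold, a fold of haem proteins among others, and had 16.9, 1561 and 1348 CPM on glucose, with 66.8 to 137 CPM on low melanin and 59.5 to 74.4 CPM on high melanin necromass (adjusted p = 0.109, but 0.0101 without low melanin replicate 2). Protein ID 38417, also without tags, was at 0.398 CPM, or 8 counts, in glucose replicate 1 and at 62.3 and 57.3 CPM in the others. Its necromass levels were 1.66 to 2.53 CPM on low melanin and 0.610 to 0.793 CPM on high melanin necromass (log2 change -1.51, SE 0.26, adjusted p = 0.00333). They lay between the glucose levels and nearer to glucose replicate 1, with means 5.32-fold (low melanin) and 1.72-fold (high melanin) above it. On the higher side, protein ID 38496 was at 33.9 CPM in glucose replicate 1, at 0.102 and 0.195 CPM in replicates 2 and 3 (2 and 4 counts) and at 0.358 to 1.05 CPM on necromass. Protein ID 71986 was at 147, 4.39 and 2.48 CPM on glucose and at 0 to 0.199 CPM, or 0 to 4 counts, on necromass. Both were therefore at high levels in 1 library of the 9 alone.

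Other tagged genes of the higher set had a like course. The methyltransferase-domain gene (protein ID 143047) was at 472, 50.2 and 40.1 CPM on glucose and at 4.55 to 6.81 CPM on necromass. The gene with a lectin/glucanase fold (protein ID 10947) was at 13.2, 1.58 and 2.24 CPM on glucose and at 0.373 to 1.16 CPM on necromass, and protein ID 89101, tagged with an orthologous group only, was at 13.3, 1.17 and 0.779 CPM on glucose and at 0.325 to 0.719 CPM on necromass. For these 3 genes necromass levels were below every glucose library, and the difference between necromass types missed the threshold (adjusted p of 0.287 to 0.659). In contrast, the phytanoyl-CoA dioxygenase family gene (protein ID 53366) was at 26.7, 6.12 and 5.60 CPM on glucose and at 53.2 to 69.2 CPM on necromass, and so, like the hydrophobin gene, was above glucose replicate 1 in all 6 libraries. On the lower side, the gene with CXCXC repeats (protein ID 124811) was among those whose necromass levels exceeded all glucose levels. It had 57.7, 1436 and 891 CPM on glucose, with 15760 to 18778 CPM on low melanin and 8725 to 10975 CPM on high melanin necromass, and fell between the types by 0.74 on the log2 scale (SE 0.17, adjusted p = 0.0117), a call lost without low melanin replicate 1 or high melanin replicate 1 or 2 (adjusted p of 0.0513 to 0.0563).

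Each of the 168 genes was then placed by its mean log2(CPM + 0.5) on necromass against the midpoint between glucose replicate 1 and the mean of replicates 2 and 3. Of the 49 genes higher in glucose replicate 1, 40 were nearer to replicates 2 and 3 on low melanin and 39 on high melanin necromass, with 9 and 10 nearer to replicate 1. The 119 lower genes were spread more evenly, with 69 nearer to replicates 2 and 3 and 50 nearer to replicate 1 on low melanin, and 62 and 57 on high melanin necromass. On both necromass types 55 genes of the 168 were nearer to glucose replicate 1 and 97 were nearer to replicates 2 and 3. The side differed between the types at 16 genes, 12 of them nearer to replicate 1 on high melanin necromass only. Some genes left the range of the glucose libraries altogether. At 41 genes (24 higher, 17 lower) all 6 necromass libraries were below all glucose libraries and at 27 (6 higher, 21 lower) they were above all of them. These are 24.4% and 16.1% of the 168 genes, beside 32.7% and 30.8% of all 9849 genes. These positions rest on the glucose values that chose the genes, the same for both necromass types, and carry no test.

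**Figure D4:**
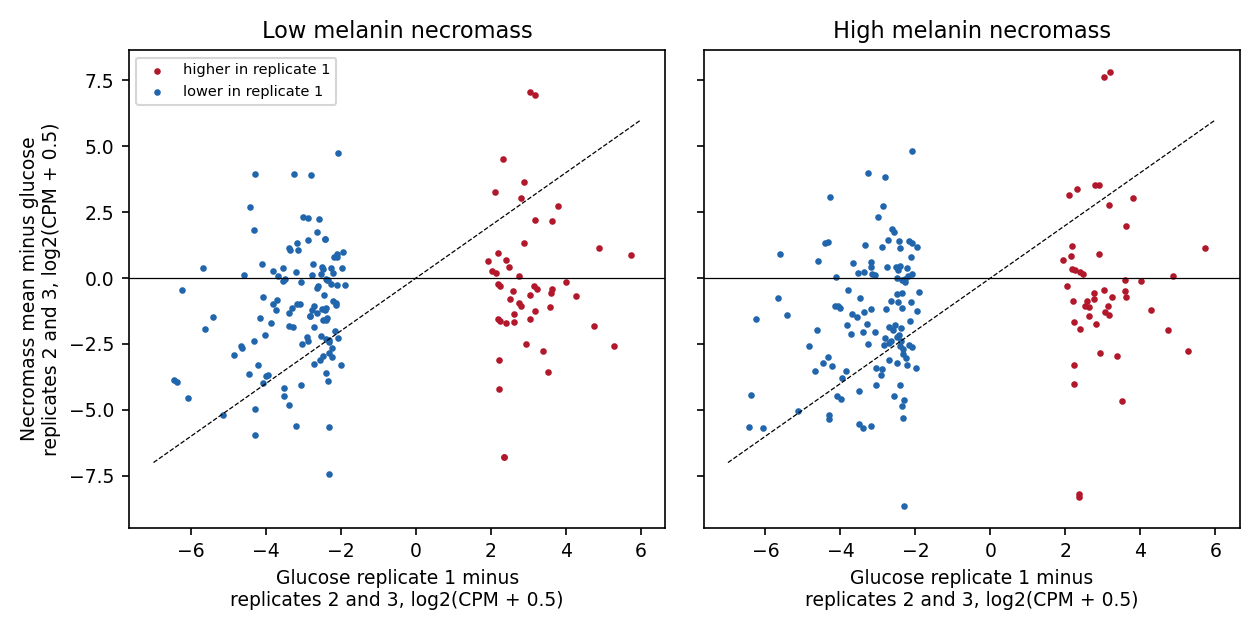
For each chosen gene, the x axis gives log2(CPM + 0.5) in glucose replicate 1 minus the mean of replicates 2 and 3, and the y axis the mean on low (left) or high (right) melanin necromass minus the same glucose mean. Points on the solid line match glucose replicates 2 and 3 and points on the dashed line match replicate 1, and most of the higher genes lie near or below the solid line.

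The comparison of the necromass types asks how the 168 genes differ between these substrates, and it uses none of the libraries that chose them. The study found relatively more nitrogen-containing and less sugar material in the high melanin type. It also grew the types in different culture volumes and at different shaking speeds. Melanin therefore cannot be told apart from these other differences. With a filter of at least 10 counts in at least 3 libraries, 161 of the 168 genes could be tested in the 6 necromass libraries, all 119 lower and 42 of the 49 higher ones. At an adjusted p under 0.05 (edgeR quasi-likelihood test), 31 were higher and 53 were lower on high than on low melanin necromass, 19.3% and 32.9% of those tested. Of all 9190 genes tested, 16.7% were called higher and 14.9% were called lower. Among the 119 genes lower in glucose replicate 1, 48 (40.3%) were lower on high melanin necromass and 20 (16.8%) were higher. Among the 42 genes higher in glucose replicate 1, 5 (11.9%) were lower and 11 (26.2%) were higher. The median log2 change was -0.26 over the lower genes (quartiles -0.73 and 0.21) and -0.10 over the higher genes, against -0.01 over all genes tested, and without low melanin replicate 2 that of the higher genes turned to 0.02. Only protein ID 33393 passed both an adjusted p under 0.05 and a log2 change of 2 upwards, against 0.675% of all genes, and 0 of the 161 did so downwards, against 0.229% of all genes. The count downwards was also 0 with DESeq2 and at an unadjusted p under 0.05, but 1 without high melanin replicate 2 and 3 without high melanin replicate 3.

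Protein ID 33393, a gene outside the annotation, was at 0.199 CPM in glucose replicate 1, 35.3 and 32.5 CPM in replicates 2 and 3, 7.86, 10.1 and 8.0 CPM on low melanin and 43.4, 86.1 and 68.7 CPM on high melanin necromass. The high melanin libraries did not overlap the low melanin ones, with a log2 change of 3.03 (SE 0.24, adjusted p = 0.000141). The next rises were those of protein ID 138931 at 1.71 (SE 0.17, adjusted p = 0.00036), protein ID 83724 at 1.41 (SE 0.10, adjusted p = 0.000101) and the aminotransferase gene (protein ID 132179), for a class I and II enzyme that moves amino groups between amino acids and keto acids, at 1.37 (SE 0.28, adjusted p = 0.00753). That gene was at 0.830, 1.57 and 1.54 CPM on low melanin and 3.53, 2.44 and 3.59 CPM on high melanin necromass, low levels beside the 45.0 CPM of glucose replicate 1.

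The largest falls included the gene of an NmrA-like protein (protein ID 26551), a fold known from a fungal nitrogen regulator, at -1.83 (log2, SE 0.35, adjusted p = 0.00536), but it rested on 17 to 24 counts on low and 5 to 7 counts on high melanin necromass. More counts lay behind protein ID 75541, without tags, at 336, 333 and 357 CPM on low melanin and 84.4, 109 and 92.9 CPM on high melanin necromass, a log2 change of -1.73 (SE 0.10, adjusted p = 4.7e-05). In protein ID 6784, also without tags, the levels were 103, 70.5 and 154 CPM on low melanin and 24.6, 41.9 and 25.3 CPM on high melanin necromass (log2 change -1.73, SE 0.28, adjusted p = 0.00243). On glucose protein ID 75541 was at 76.1, 1025 and 1205 CPM, so its high melanin level was near that of glucose replicate 1 and its low melanin level between.

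**Figure D5:**
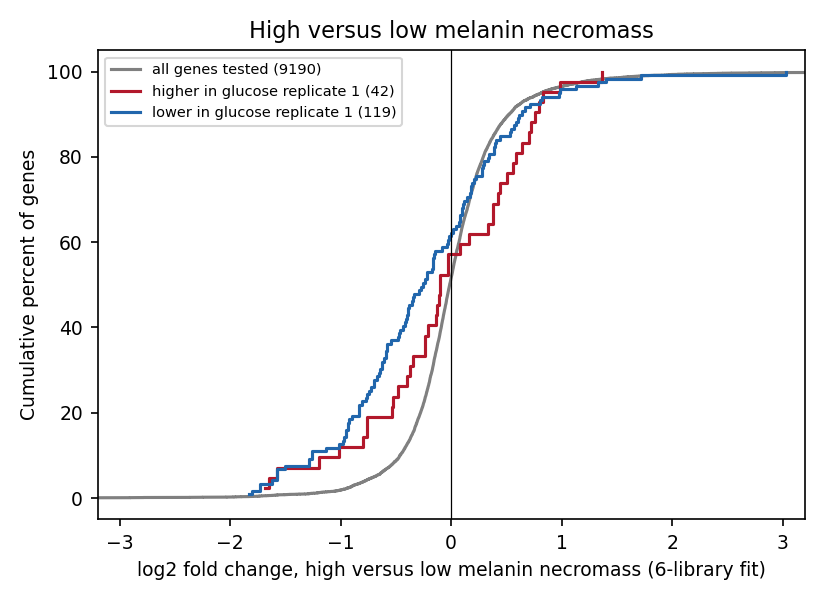
Cumulative percent of genes (y axis) by their log2 change of high against low melanin necromass (x axis) in the 6 necromass libraries, for the 42 genes higher in glucose replicate 1 (red), the 119 lower (blue) and all 9190 genes tested (grey). The medians are -0.10 for the genes higher and -0.26 for the genes lower in glucose replicate 1.

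In 59 of the 84 genes called between the necromass types (70.2%), high melanin necromass differed from low in the direction in which glucose replicate 1 differed from replicates 2 and 3. The share was 48 of 68 among the lower genes and 11 of 16 among the higher genes, and 1458 of 2909 (50.1%) over all genes called. Whether these shares differ beyond chance was not tested.

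The call between necromass types rested on which libraries set the spread. In a fit of all 9 libraries with 3 substrates, 0 of the 168 genes were called, against 856 genes in all (9.19%), and 11 of 166 had an unadjusted p under 0.05, against 25.7% of all genes. DESeq2 on the 9 libraries called 4 of the 152 it tested (2.63%), against 15.4% of all genes. With glucose replicate 1 left out, the fit of 8 libraries called 82 of them, against 25.6% of all genes. The median biological coefficient of variation of the chosen genes was 0.130 in the 6 necromass libraries and 0.531 in all 9, where the choice itself sets a wide spread on glucose. Over all genes tested it was 0.0953 and 0.156.

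Against glucose, both necromass types are set against the same 3 libraries, and the calls use the values that chose the genes and are a description only. In all 9 libraries, with the same adjusted p and a log2 change of 2 or more required, 15 of the 166 genes tested were called higher and 58 lower on low melanin necromass, beside 12.0% and 7.18% of all 9312 genes tested. On high melanin necromass 14 were called higher and 67 lower, beside 13.5% and 8.8%. Without glucose replicate 1 the counts were 18 and 51 on low melanin necromass (12.4% and 6.64% of all genes) and 16 and 59 on high melanin necromass (13.7% and 8.24%). These totals hide an exchange of genes. On low melanin necromass 52 calls were kept without that library, 21 were lost and 17 were gained. The fold change turned its sign or had no value at 27 genes. On high melanin necromass 61 were kept, 20 lost and 14 gained, with 19 such genes. Without that library only 163 of the 168 genes could be tested. The remaining genes count as having no value and, where they had been called, as lost. Leaving the library out moved the fold change against glucose by a median of 1.54 (log2) upwards in the higher genes, where the calls downwards fell from 27 to 7 on low and to 9 on high melanin necromass. Of these genes 47 were tested with the library and 44 without it. Part of the fall is therefore genes no longer tested, protein IDs 71986, 88742 and 10616. In the lower genes the median shift was -0.52 on both types, and the calls downwards rose in number from 31 to 44 (low melanin) and from 40 to 50 (high melanin).

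The 168 genes also had wider ranges among replicates on necromass, which the choice did not use. The log2 range over the 3 replicates, on CPM + 0.5, had a median of 0.377 in these genes on low melanin necromass, against 0.202 over all genes with a mean of 10 CPM or more there, and of 0.364 against 0.190 on high melanin necromass. Restricted to chosen genes at 10 CPM or more, the medians were 0.347 and 0.331. On high melanin necromass the latter was 0.342 for the 90 lower genes and 0.2245 for the 15 higher genes at that level. A range of at least 2-fold was seen at 7 of the 168 genes (4.17%) on low and 9 (5.36%) on high melanin necromass. Among chosen genes at 10 CPM or more it was seen at 3 of 106 (2.83%) and 4 of 105 (3.81%), against 0.659% and 1.01% of all genes at that level. High melanin replicate 2 was the highest of its 3 at 79 of the 119 genes lower in glucose replicate 1 (66.4%) and at 27 of the 49 higher genes (55.1%). Among the 7060 genes at 10 CPM or more there, the share was 49.0%. Low melanin replicate 2 was the lowest of its 3 at 71 of the 119 lower genes and at 3586 of the 7133 genes at 10 CPM or more there. In both comparisons the chosen genes were counted at any level, so the sets are unlike. No test was made of these shares, since genes of 1 library are not replicates.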

How the data were processed

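Poly(A) RNA of 9 cultures was sequenced, and the authors trimmed the reads (CHURP), quantified them against RUT-C30 transcripts with kallisto version 0.48.0 and imported them with tximport. The deposited values are kallisto's estimated counts per gene, in whole numbers and not scaled for depth. kallisto divides reads shared by similar transcripts by estimation, so counts of close paralogs are uncertain. Of 9849 genes, 27 had no count.

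From these, CPM were computed with column totals. Genes that reached 10 counts in 3 libraries or more were tested with edgeR version 4.0.16 (TMM, quasi-likelihood) under R version 4.3.3, with Benjamini-Hochberg adjustment over all genes tested. The necromass types were compared in their 6 libraries and against glucose in all 9. Alternatives were DESeq2 version 1.42.0, other scalings, filters and thresholds, a replicate block, and leaving out each library in turn. Python version 3.11.15 with pandas version 2.3.3 was used for the rest. Scripts for the tests were tested on simulated data.

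The genes and lists were chosen with earlier results of these data known. Genes were named by rule: on each side the 10 tagged and the 2 untagged or unlisted genes with the largest ratios, tagged carbohydrate-active, peptidase, P450 and hydrophobin genes, the 4 largest changes in each direction between necromass types, and the genes nearest the limit. Protein IDs 141194, 98500, 102433, 109243, 7623, 104258, 142431, 53366, 136611, 110465, 77007, 140662, 121479, 75795 and 71162 were chosen after their values were seen. Annotation tags came from the study's own annotation of genes it had called, of which a shortened copy was used. None of the IDs matched the gene table of strain QM6a (0 of 9849), so no sequences or coordinates are given.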

Additional observations from a re-analysis of the deposited data

How the results depend on the processing

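A fold limit of 3 in place of 4 chose 257 genes and a limit of 8 chose 75, against 168. A minimum of 5 CPM chose 186, one of 20 CPM chose 129, and leaving out glucose replicate 2 or 3 chose 214 and 198. Between the necromass types, 84 of these genes were called in the 6 libraries, 60 to 91 with 1 library left out, 92 with DESeq2, 0 in the fit of all 9 libraries and 4 with DESeq2 on all 9, an alternative chosen after seeing the data, as was the fit of 8 libraries. With a log2 fold change of at least 2 the count was 1, with 1 to 4 when a library was left out and 0 in both fits of all 9 libraries. The median fold change of the genes higher in glucose replicate 1 was -0.0996 to 0.0179 with 1 library left out, above 0 only without low melanin replicate 2. Against glucose, 63 to 69 genes were called on low and 73 to 80 on high melanin necromass with 1 library left out. Same-numbered cultures on the necromass types did not deviate together (correlations of -0.045 to -0.017), so the numbers were not taken to pair them. A replicate block gave 83 calls between the necromass types, and 68 and 77 against glucose. It ended the call of 1 named gene, protein ID 110048. Without the 2 genes highest on necromass, an alternative also chosen after seeing the data, the mean share of counts in the genes lower in glucose replicate 1 was 4.68% in place of 8.85% on low melanin and 3.30% in place of 6.77% on high melanin necromass. Over 51 named genes, 660 results under alternatives gave 562 on the same side of the threshold, 92 no longer past it and 6 newly past it. None that passed the threshold changed sign, and 11 results of 5 genes that did not pass it did.

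Depth limits genes at the lowest levels, 7 of which had too few counts on necromass for a test. There were 3 cultures of each substrate. Glucose replicate 1 stood apart from the other glucose libraries, and the cause was not tested. Annotation covered only part of the genes.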
